A study of Mus musculus with 10 samples.

Results

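The potassium channel genes of the injured mouse spinal cord are described here: every gene whose single symbol in the array annotation begins with Kcn. Of 14847 genes with 1 symbol in the gene-level table, 73 met this rule, through 74 transcript clusters (a cluster is the set of probes that covers 1 gene locus), and where a symbol had more than 1 cluster the brightest over the 5 arrays stood for it. Of the 73, 54 reached a log2 signal of 3.79 (40th percentile of the gene-level table) on at least 1 array and are called measured. The other 19 (Kcna7, Kcne1, Kcne2, Kcne3, Kcnf1, Kcng3, Kcnj1, Kcnj5, Kcnj14, Kcnk7, Kcnk18, Kcnmb1, Kcnmb2, Kcnq1, Kcnrg, Kcns2, Kcnu1, Kcnv1 and Kcnv2) stayed between 1.82 and 3.74 on all arrays. Of the measured genes, 45 were above this level on all 5 arrays, while Kcnj6 and Kcnj11 reached it in sham alone and Kcnj15 at 1 week alone.

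RNA came from the cord at thoracic segment T10 of wild-type ICR mice, an outbred stock, labelled 4 weeks old in every group. Injured cords were taken after 1 day, 3 days, 1 week or 3 weeks, and the fifth group had a sham operation. The sample labels give no time after operation for the sham group, and the injured times come from different cords. The design text states that RNA of 3 mice was pooled by equal mass for each group. Each group is therefore 1 array, no spread between animals exists, and no test or p-value is given. Beside a gene-level log2 difference stands the median ± SD over the exon-level probe sets of the same gene, and this SD is the spread between probes within 1 pair of arrays. Higher and lower, as calls, mean a change of 2-fold or more (1 in log2). Array signals were compared between groups for the same gene and never between genes.

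Potassium channels let potassium leave the cell and so set the resting potential, end action potentials and control how often a neuron can fire. Voltage-gated subunits (Kcna to Kcnd, Kcnh, Kcnq) open on depolarisation, inward rectifiers (Kcnj) and two-pore channels (Kcnk) hold the resting potential, and Kcnn and Kcnma channels open with intracellular calcium. In the cord the voltage-gated channels are best known from neurons and the juxtaparanodes of myelinated axons, the Kcnj10 channel from astrocytes and oligodendrocytes, where it clears extracellular potassium, and Kcnn4 and Kcnk13 from microglia and macrophages.

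Most potassium channel genes were lower after injury, with the largest number of lower calls at 1 week. At 1 day, 11 of 54 measured genes were at least 2-fold lower than in sham, where 4.09% of all 11272 measured genes were, and 0 were higher, where 3.79% of all genes were. At 3 days 22 of 54 were lower, against a background of 9.58%, and 0 higher, against 5.94%. At 1 week 30 of 54 were lower (background 13.9%) and 3 were higher (background 11.3%): Kcnj2, Kcnj15 and Kcnn4. At 3 weeks 11 were lower (background 3.4%) and 3 higher (background 8.49%): Kcnj2, Kcnk5 and Kcne4. Centring each array on its median left 2 higher at 3 weeks (7.06% of all genes), and so did quantile normalization (7.55%). Of the 3 calls, that of Kcne4, at 1.07, lay nearest to 2-fold. The 4 comparisons share the sham array. The lower counts include Kcnj11 at all 4 times, which passed the filter in sham alone, and the higher count at 1 week includes Kcnj15, which passed it at 1 week alone. For both, the filter fixes the sign of these calls.

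The median log2 difference of the 54 genes was -0.62 after 1 day, -0.87 after 3 days, -1.37 after 1 week and -0.62 after 3 weeks, where that of all measured genes was -0.15, -0.12, -0.06 and 0.00. Differences below 0, of any size, were found in 49 of 54 genes at 1 day (66.2% of all genes), 48 at 3 days (61.7%), 48 at 1 week (54.7%) and 45 at 3 weeks (48.5%). For 42 of the 54 genes the 1 week array held the lowest of the 5 signals, against 31% of all genes. The counts depend on the scaling of the arrays. At 1 day quantile normalization moved the median of all genes by 0.14 and left 5 of 54 channel genes lower, against 2.13% of all genes. In bulk tissue, fewer cells of a type and less RNA per cell cannot be told apart, and neuronal markers moved in the same direction: 9 of 9 measured neuron markers were lower at 1 week, with a median of -2.42.

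**Figure D1:**
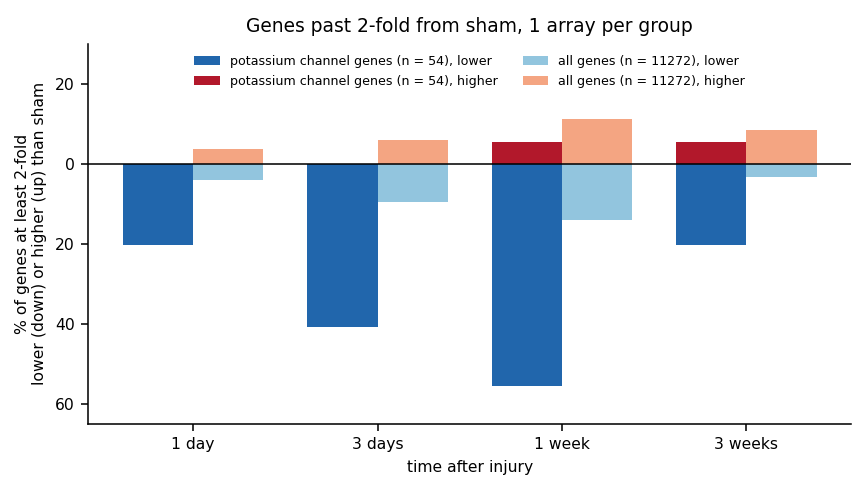
Percentage of genes at least 2-fold lower (bars down) or higher (bars up) than sham at each time after injury, for the 54 measured potassium channel genes (dark bars, left) and all 11272 measured genes (pale bars, right). The lower share of the channel genes is the taller of each pair at every time and reaches 30 of 54 genes at 1 week.

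**Figure D2:**
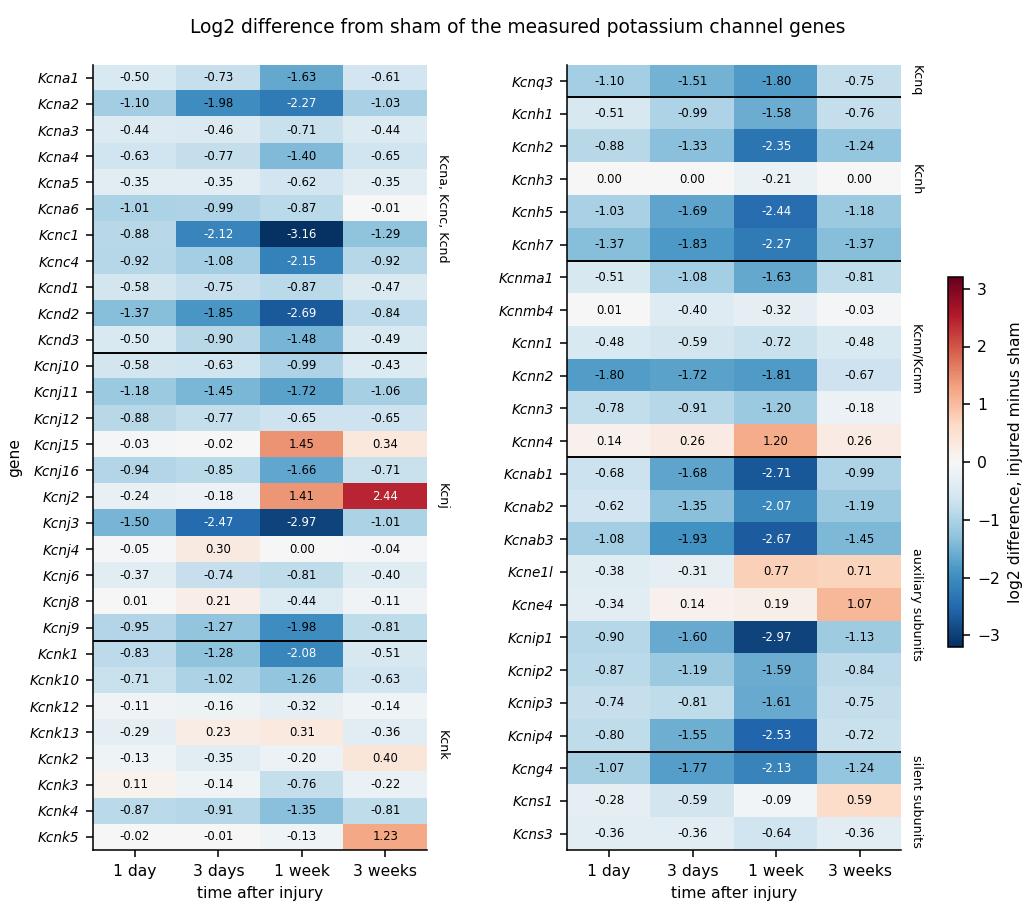
Gene-level log2 difference from sham (injured minus sham, 1 array each) of the 54 measured potassium channel genes at the 4 times, by subfamily. Blue cells are lower and red cells higher than sham, and the deepest blue in most rows is at 1 week, where Kcnc1 is at -3.16.

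Among the voltage-gated pore subunits of the Kcna, Kcnc and Kcnd groups, 7 of 11 measured genes were lower at 1 week (13.9% of all genes) and 0 higher (11.3%). The median differences of these subunits were -0.63, -0.90, -1.48 and -0.61 at 1 day, 3 days, 1 week and 3 weeks. Kcnc1 encodes a rapidly gating channel that lets neurons fire at high rates. Its log2 signal was 7.76 in sham, 6.88 after 1 day, 5.64 after 3 days, 4.60 after 1 week and 6.47 after 3 weeks. The gene was thus 8.94-fold lower at 1 week than in sham, a log2 difference of -3.16, while its probe sets gave -2.18 ± 1.17 (SD, n = 7), so that the gene-level value is the larger. A second Kcnc1 cluster, which is dimmer, differed from sham by -1.88 at 1 week. Kcnc4, of the same group, was at -2.15 at 1 week (probe sets -2.33 ± 1.15, n = 7).

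Kcnd2 encodes the pore of the somatodendritic A-type current, which delays firing. It gave 8.65 in sham, 7.28 after 1 day, 6.79 after 3 days, 5.96 after 1 week and 7.80 after 3 weeks. Its difference at 1 week was -2.69, and its 7 probe sets, which all moved down, gave -2.59 ± 0.48. Its relative Kcnd3 was at -1.48 (-1.59 ± 0.73, n = 7) at 1 week and at -0.49 at 1 day and at 3 weeks.

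Kcna1 and Kcna2 form the channels that lie under the myelin beside the nodes of Ranvier. Kcna2 was at 9.07 in sham, 7.97 after 1 day, 7.09 after 3 days, 6.80 after 1 week and 8.04 after 3 weeks. As deposited, it was past 2-fold below sham at all 4 times, with -2.27 at 1 week (probe sets -2.13 ± 1.13, n = 6). Its differences of -1.10 at 1 day and -1.03 at 3 weeks lay near 2-fold. Kcna1, at 8.61 in sham, 8.11, 7.88, 6.98 and 8.0 at the successive times, passed 2-fold at 1 week alone (-1.63, probe sets -1.75 ± 0.84, n = 8). Kcna6, another axonal subunit, had another course, with 6.84 in sham, 5.83 after 1 day, 5.86 after 3 days, 5.97 after 1 week and 6.84 after 3 weeks. Its lowest signal was at 1 day (-1.01, probe sets -1.21 ± 0.62, n = 10), and at 3 weeks it differed from sham by -0.01. Kcna3, a channel of T cells and activated microglia as well as of neurons, was between 5.36 and 6.07 on the 5 arrays and stayed within 2-fold of sham, with -0.71 at 1 week (probe sets -0.59 ± 0.26, n = 3).

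Auxiliary subunits bind the pores and change their gating or surface level. Of 9 measured genes, 6 were lower at 3 days (9.58% of all genes) and 7 at 1 week (13.9%), where their median was -2.07. At 3 weeks 1 was higher, Kcne4, where 8.49% of all genes were. Kcnip1, a calcium-binding partner of the Kcnd channels, was at 7.37 in sham, 6.47 after 1 day, 5.77 after 3 days, 4.40 after 1 week and 6.24 after 3 weeks. Its difference of -2.97 at 1 week was matched by the probe sets (-3.0 ± 0.78, n = 12, all lower). Of the 6 genes of the A-type complex (Kcnd2, Kcnd3 and Kcnip1 to Kcnip4), 6 were lower at 1 week (13.9% of all genes), with a median of -2.07. At 3 weeks 1 was lower (3.4%), Kcnip1 at -1.13.

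The Kcnab genes encode the cytoplasmic beta subunits that bind Kcna channels. Kcnab1 was at 8.30 in sham and at 7.62, 6.63, 5.60 and 7.31 at the successive times, with -2.71 at 1 week (probe sets -2.91 ± 0.59, n = 16). Kcnab2, the partner of Kcna1 and Kcna2 at the juxtaparanode, was at 9.71 in sham and at 9.09, 8.37, 7.64 and 8.53 after injury. It differed from sham by -2.07 at 1 week (-2.21 ± 1.25, n = 18) and by -1.19 at 3 weeks. Kcnab3 was at 7.16 in sham and at 6.08, 5.23, 4.50 and 5.71 after injury, and its difference of -1.45 at 3 weeks (probe sets -1.45 ± 0.63, n = 19) was the lowest of the 54 genes at that time. All 3 beta subunit genes thus had their lowest signal at 1 week.

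The Kcnh genes encode the EAG, ERG and ELK channels, which regulate excitability near threshold. Of 5 measured genes, 2 were lower after 1 day (4.09% of all genes), 3 after 3 days (9.58%), 4 after 1 week (13.9%) and 3 after 3 weeks (3.4%). The Kcnh medians were -0.88, -1.33, -2.27 and -1.18. Kcnh5 was at 6.85 in sham, 5.82 after 1 day, 5.16 after 3 days, 4.42 after 1 week and 5.67 after 3 weeks, and all of its 19 probe sets were lower at each time, with -2.68 ± 0.62 at 1 week. Kcnh7 was at 5.87 in sham and at 4.50, 4.04, 3.61 and 4.50 after injury, with its 1 week signal under the filter level, so that the size of its difference of -2.27 (probe sets -2.74 ± 0.76, n = 14) is rough. Kcnh2, the ERG channel of cardiac repolarisation, was at 6.84 in sham and at 5.96, 5.51, 4.49 and 5.60 after injury, which is -2.35 at 1 week (-2.70 ± 1.02, n = 19). Kcnh3 differed from the others, with a difference of 0.00 at 1 day, 3 days and 3 weeks and of -0.21 at 1 week.

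Kcnq3, a subunit of the M-current that damps repetitive firing, was the measured gene of its group. Its signal was 7.11 in sham, 6.01 after 1 day, 5.60 after 3 days, 5.31 after 1 week and 6.36 after 3 weeks. As deposited, it was lower from 1 day on (-1.10) until 1 week (-1.80, probe sets -1.73 ± 0.62, n = 17), and its 3 week difference of -0.75 lay within 2-fold. Quantile normalization brought its 1 day difference within 2-fold.

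**Figure D3:**
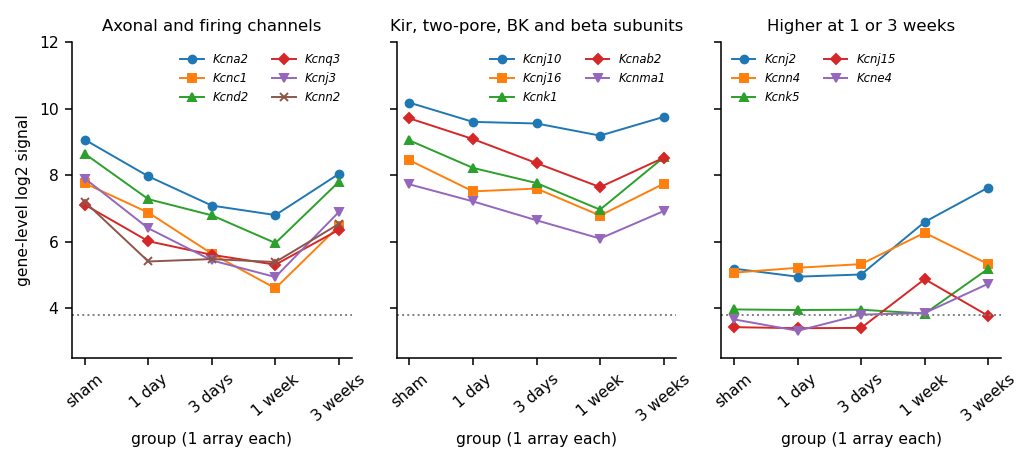
Gene-level log2 signal on each of the 5 arrays (sham, then rising time after injury, 1 array per group) for selected potassium channel genes, with the filter level of 3.79 dotted. Genes in the left and middle panels dip to 1 week and lie higher at 3 weeks, while Kcnn2 is near its lowest by 1 day (5.40), and Kcnj2 in the right panel ends at 7.63 at 3 weeks.

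Of 11 measured Kcnj genes, the inward rectifiers, 4 were lower at 1 week (13.9% of all genes) and 2 higher (11.3%), with a median of -0.81. At 3 weeks 2 were lower (3.4%) and 1 higher (8.49%), so the numbers of higher genes lay near the shares of all genes. Kcnj3 and Kcnj9 encode GIRK subunits, which inhibitory G protein-coupled receptors open in neurons. Kcnj3 was at 7.90 in sham, 6.40 after 1 day, 5.44 after 3 days, 4.94 after 1 week and 6.90 after 3 weeks. Its differences of -1.50, -2.47, -2.97 and -1.01 had a small spread over 4 probe sets, with -2.47 ± 0.15 at 3 days. Kcnj9 was at 5.43 in sham and at 4.48, 4.16, 3.45 and 4.62 after injury, -1.98 at 1 week (probe sets -2.40 ± 0.91, n = 5) with that signal under the filter level. The third GIRK gene, Kcnj6, had -0.81 as its gene-level difference at 1 week and -2.77 ± 1.89 as that of its 4 probe sets, so the summaries differ for this dim gene.

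Kcnj10 and Kcnj16 form the Kir channels of astrocytes. Kcnj10 was at 10.19 in sham, 9.61 after 1 day, 9.56 after 3 days, 9.19 after 1 week and 9.76 after 3 weeks. Its difference of -0.99 at 1 week (probe sets -0.97 ± 0.31, n = 4) lay just inside 2-fold. Kcnj16 was at 8.45 in sham and at 7.52, 7.60, 6.79 and 7.74 after injury, with a difference of -1.66 at 1 week (probe sets -1.70 ± 0.75, n = 6). Astrocyte markers had medians of -0.45 after 1 day, -0.91 after 3 days, -0.53 after 1 week and 0.45 after 3 weeks. Kcnj10 was at -0.58, -0.63, -0.99 and -0.43 at the same times, above the astrocyte marker median at 3 days and below it at the others. At 1 week Kcnj10 lay inside the range of these markers, -1.12 to 0.60, and at 3 weeks below it, -0.33 to 0.89. Kcnj16 lay below the range at both times, at -1.66 and -0.71. Oligodendrocytes also carry Kcnj10, and their markers had medians of -0.12, -0.50, -1.32 and -0.77. The part of either cell type was not tested.

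Kcnj11 and Kcnj8 encode the pore subunits of ATP-sensitive channels. Kcnj11 was at 4.73 in sham and at 3.54, 3.27, 3.01 and 3.66 after injury, all under the filter level, so that its differences of -1.18, -1.45, -1.72 and -1.06 are rough, and 2 probe sets stand behind them. The gene passed the filter in sham alone, which fixes the sign of these differences. Kcnj8, which marks pericytes, was between 5.28 and 5.92 and within 2-fold at each time. The 5 pericyte and smooth muscle markers were unlike each other. Their median was 1.83 at 1 week (range -0.01 for Myh11 to 3.45) and 2.08 at 3 weeks (range 0.00 for Rgs5 to 2.55).

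The two-pore channels carry background currents, and 3 of 8 measured Kcnk genes were lower at 1 week (13.9% of all genes). Kcnk1 (TWIK) was at 9.05 in sham, 8.22 after 1 day, 7.77 after 3 days, 6.97 after 1 week and 8.54 after 3 weeks. All of its 5 probe sets were lower at each time, with -2.35 ± 0.37 at 1 week against -2.08 at the gene level. Kcnk4 (TRAAK), a mechanosensitive channel of nodes of Ranvier, was at 5.80 in sham and at 4.93, 4.89, 4.46 and 4.99 after injury, which is -1.35 at 1 week (-1.14 ± 0.89, n = 6). Kcnk10 (TREK) was at -1.26 at 1 week with a signal of 3.29, under the filter level. The related Kcnk2 stayed within 2-fold, with -0.20 at 1 week and 0.40 at 3 weeks. Kcnk13, the THIK channel of microglia, was at 4.42 in sham, 4.13 after 1 day, 4.65 after 3 days, 4.73 after 1 week and 4.06 after 3 weeks, within 2-fold of sham throughout.

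Among the calcium-activated channels, 3 of 6 measured Kcnn and Kcnm genes were lower at 1 week (13.9% of all genes) and 1 was higher (11.3%). Kcnn2, an SK channel that gives the afterhyperpolarisation following a spike, was at 7.20 in sham, 5.40 after 1 day, 5.48 after 3 days, 5.39 after 1 week and 6.54 after 3 weeks. Its difference of -1.80 at 1 day was the lowest of the 54 genes at that time, all of its 11 probe sets were lower (-2.08 ± 0.42), and its signals at the next times up to 1 week stayed close to that level. Kcnn3, a second SK gene, was at -0.78 at 1 day and -1.20 at 1 week (-1.38 ± 0.63, n = 10). Kcnma1, the pore of the BK channel, which opens with voltage and calcium together, was at 7.73 in sham and at 7.21, 6.64, 6.09 and 6.92 after injury. It was at -1.63 at 1 week, and all of its 34 probe sets were lower (-1.70 ± 0.58).

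Silent subunits form no channel alone and modify other voltage-gated pores. Of the 3 that were measured, Kcng4 was lower at all 4 times as deposited, with 6.79 in sham and 5.72, 5.01, 4.65 and 5.54 after injury. Its 1 day difference of -1.07 lay near 2-fold, where centring each array moved the median of all genes by 0.08. Kcng4 was at -2.13 at 1 week (probe sets -1.97 ± 1.18, n = 7). Kcns3 was at 5.51 in sham and between 4.88 and 5.15 after injury, within 2-fold. Kcns1 was at 5.19 in sham, 4.91 after 1 day, 4.61 after 3 days, 5.11 after 1 week and 5.79 after 3 weeks, within 2-fold of sham at each time.

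At least 2-fold higher than sham at some time were 5 of the 54 genes, against 14.2% of all genes, and none of the 5 was called before 1 week. Kcnj2 encodes a strong inward rectifier found in endothelium, muscle, macrophages and neurons. Its signal was 5.19 in sham, 4.95 after 1 day, 5.01 after 3 days, 6.59 after 1 week and 7.63 after 3 weeks. The gene was 5.44-fold higher than sham at 3 weeks, a log2 difference of 2.44 (probe sets 2.30 ± 0.60, n = 6, all higher), after 1.41 (1.46 ± 0.38) at 1 week. Kcnn4, the intermediate-conductance calcium-activated channel of immune cells, was at 5.07 in sham, 5.21 after 1 day, 5.33 after 3 days, 6.27 after 1 week and 5.33 after 3 weeks. It was higher at 1 week alone, by 1.20 (probe sets 1.68 ± 0.90, n = 12, all higher).

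Kcnk5, an acid-sensitive two-pore channel known from kidney epithelium, lay between 3.83 and 3.96 in sham and up to 1 week and was at 5.19 at 3 weeks. That is 1.23 above sham, and all of its 5 probe sets were higher (1.67 ± 0.59). Kcnj15 was at 3.43 in sham, 3.39 after 1 day, 3.40 after 3 days, 4.87 after 1 week and 3.77 after 3 weeks, with a gene-level difference of 1.45 at 1 week, where its 2 probe sets gave 3.53 ± 0.31. Since the other 4 signals of Kcnj15 lay under the filter level, the size of this difference is rough and the filter fixes its sign. Kcne4, an auxiliary subunit that inhibits Kcna channels, was at 3.66 in sham, 3.32, 3.80 and 3.85 at the next times and 4.73 at 3 weeks, 1.07 above a sham signal under the filter level (probe sets 1.58 ± 1.34, n = 6). The Kcne4 call is thus weak: it lay nearest to 2-fold of those at 3 weeks, where either rescaling of the arrays left fewer channel genes higher.

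The 5 genes lay beside large rises of the markers of some other cell types. Of 11 microglia and macrophage markers, 11 were higher at 1 week (median 4.08) and at 3 weeks (median 3.12), and of 5 fibroblast markers 5 were higher at both times (medians 4.05 and 3.94). The mean log2 signal of the 11 microglia and macrophage markers was 5.17 in sham, 6.71 after 1 day, 8.53 after 3 days, 9.56 after 1 week and 8.64 after 3 weeks. At 3 days 9 of these 11 markers were already higher (median 2.84), while Kcnj2 was at -0.18 and Kcnn4 at 0.26. Skeletal muscle markers had their highest median at 1 day (3.89, 7 of 7 higher), when 0 channel genes were higher. Endothelial markers moved less. Of these 5, 1 was higher at 1 week (median -0.01, 11.3% of all genes) and 1 at 3 weeks (median 0.49, 8.49%), Cdh5 at both times. The part of these cell types in the 5 genes was not tested.

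Kcnc1 had the lowest gene-level difference at 1 week, though not the lowest over probe sets. The upstream sequences of the 5 higher genes are given for description, with that of Kcnc1 for comparison. Each runs 5′ to 3′ on the gene's strand from 250 bases before to 50 after the start (RefSeq, build GRCm38.p6), and capitals mark CACGTG, the E-box core. Promoter windows were found for 58 of the 73 genes. The windows are chr11:111065914-111066213 (+ strand) for Kcnj2, chr7:24370013-24370312 (+) for Kcnn4, chr14:20181733-20182032 (- strand) for Kcnk5, chr1:78816661-78816960 (+) for Kcne4, chr16:95257308-95257607 (+) for Kcnj15 and chr7:46396218-46396517 (+) for Kcnc1.
Kcnj2: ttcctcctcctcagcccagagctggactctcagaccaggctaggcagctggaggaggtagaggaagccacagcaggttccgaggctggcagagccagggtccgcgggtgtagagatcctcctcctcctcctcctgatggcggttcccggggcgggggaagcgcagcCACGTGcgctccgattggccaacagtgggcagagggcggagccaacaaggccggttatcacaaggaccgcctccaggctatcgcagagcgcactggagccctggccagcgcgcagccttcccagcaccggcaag
Kcnn4: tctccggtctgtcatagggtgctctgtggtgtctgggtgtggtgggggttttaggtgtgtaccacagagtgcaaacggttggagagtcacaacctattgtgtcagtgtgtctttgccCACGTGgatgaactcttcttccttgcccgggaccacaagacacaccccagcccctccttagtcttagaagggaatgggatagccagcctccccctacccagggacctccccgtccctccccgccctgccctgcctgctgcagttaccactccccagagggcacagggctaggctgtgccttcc
Kcnk5: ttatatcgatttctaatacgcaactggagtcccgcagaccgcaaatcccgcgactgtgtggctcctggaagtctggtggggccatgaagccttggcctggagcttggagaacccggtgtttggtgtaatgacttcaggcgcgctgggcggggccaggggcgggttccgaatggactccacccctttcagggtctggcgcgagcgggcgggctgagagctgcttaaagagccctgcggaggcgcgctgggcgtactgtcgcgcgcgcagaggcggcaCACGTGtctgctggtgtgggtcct
Kcne4: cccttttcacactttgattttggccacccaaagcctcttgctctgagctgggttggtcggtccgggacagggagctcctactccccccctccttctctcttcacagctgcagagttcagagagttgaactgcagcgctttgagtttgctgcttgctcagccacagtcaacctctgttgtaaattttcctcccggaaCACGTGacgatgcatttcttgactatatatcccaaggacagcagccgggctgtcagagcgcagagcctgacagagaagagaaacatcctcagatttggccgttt
Kcnj15: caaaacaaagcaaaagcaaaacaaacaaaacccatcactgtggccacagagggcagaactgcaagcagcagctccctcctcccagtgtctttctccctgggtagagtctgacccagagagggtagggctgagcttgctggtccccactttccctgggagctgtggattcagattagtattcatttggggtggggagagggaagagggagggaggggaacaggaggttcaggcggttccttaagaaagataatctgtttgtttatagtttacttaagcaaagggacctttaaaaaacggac
Kcnc1: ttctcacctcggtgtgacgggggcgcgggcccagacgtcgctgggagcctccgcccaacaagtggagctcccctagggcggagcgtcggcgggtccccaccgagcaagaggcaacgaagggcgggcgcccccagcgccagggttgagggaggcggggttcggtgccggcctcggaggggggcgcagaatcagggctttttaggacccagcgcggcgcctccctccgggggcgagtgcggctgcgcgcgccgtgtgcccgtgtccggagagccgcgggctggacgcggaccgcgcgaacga

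The CACGTG core was in 4 of these 5 promoters of higher genes, 84 bases before the start of Kcnj2, 133 before that of Kcnn4, 54 before that of Kcne4 and 26 after that of Kcnk5. Counted by gene, it was in a window of 1 of the 25 genes lower at 1 week for which windows were found. Counted by window, it was in 7.15% of all 32851 promoter windows. It was the most unequal of 15 motifs that were searched on both strands after the values were known: the Fos and Jun motif TGANTCA, the Ets-type motif GAGGAAGT, both parts of the REST element, TTCAGCACC and also GGACAGC, the TATA box TATAAA, the E-box itself, the cAMP element TGACGTCA and its core TGACG, the long GC box GGGGCGGGG and its core GGGCGG, the Egr motif GCGTGGGCG, the hypoxia core ACGTG, which CACGTG contains, the interferon-response element, the kappaB site and the CArG box. The GC box GGGCGG, for instance, was in 3 of the 5 and in 19 of the 25, against 35.7% of all windows, and GAGGAAGT was in none of either group, against 3.2%. These matches describe the letters in the windows and were not tied to binding. Both groups were set by the array values and the motif was singled out afterwards, so the contrast is a description and was not tested. The Kcnc1 window was 74.7% G or C with 41 CG pairs, and the Kcnj15 window 49.7% with 2, where the median of all windows was 52.7% with 7.

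By the gene order of RefSeq, 6 pairs of measured channel genes were direct neighbours. Kcnj2 and Kcnj16, neighbours on chromosome 11, were at 1.41 and -1.66 at 1 week and at 2.44 and -0.71 at 3 weeks. Kcnj15 and Kcnj6 on chromosome 16 were at 1.45 and -0.81 at 1 week, but each passed the filter only on the array where it was highest, which favours these signs. Within pairs that both lay below sham the sizes differed, with Kcna2 at -2.27 beside Kcna3 at -0.71 on chromosome 3, and Kcnj9 at -1.98 beside Kcnj10 at -0.99 on chromosome 1.

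Between neighbouring times the largest movement was from 1 week to 3 weeks. At 3 days 0 genes were higher and 1 was lower than at 1 day, Kcnc1 (-1.24), where 2.91% and 0.976% of all genes were. From 3 days to 1 week 5 genes were lower (Kcnip1 at -1.37, Kcnc4, Kcnc1, Kcnab1 and Kcnh2), against 3.2% of all genes, and 3 were higher (Kcnj2 at 1.58, Kcnj15 and Kcne1l), against 5.51%. Quantile normalization turned this split into 7 lower and 2 higher.

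At 3 weeks 19 of 54 genes were at least 2-fold higher than at 1 week, where 7.05% of all genes were, and 1 was lower (background 3.48%), Kcnj15 at -1.10. The comparison shares the 1 week array with that of 1 week against sham. Kcnj15 passed the filter at 1 week alone, which fixes its sign in this step and in the one before. The largest differences were in Kcnj3 (1.96), Kcnc1 (1.87), Kcnd2 (1.84), Kcnip1 (1.84), Kcnip4 (1.81), Kcnab1 (1.71) and Kcnk1 (1.57). Kcnj2, already above sham at 1 week, was a further 1.04 higher at 3 weeks. Neuron markers were also higher at 3 weeks than at 1 week, 8 of 9 with a median of 1.42. Centring each array on its median, which moved the median of all genes by -0.17 here, left 13 genes higher and 2 lower.

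At 3 weeks against sham, 11 genes were past 2-fold below: Kcnab3 (-1.45), Kcnh7 (-1.37), Kcnc1 (-1.29), Kcnh2 (-1.24), Kcng4 (-1.24), Kcnab2 (-1.19), Kcnh5 (-1.18), Kcnip1 (-1.13), Kcnj11 (-1.06), Kcna2 (-1.03) and Kcnj3 (-1.01). Of these, Kcnj11 passed the filter in sham alone, so its sign was fixed. Genes lower at an earlier time but within 2-fold at 3 weeks were, for example, Kcnd2 (-0.84), Kcnk1 (-0.51), Kcnn2 (-0.67) and Kcna6 (-0.01).

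Other genes of potassium handling were 30 listed partners, pumps, transporters and related channels, of which 20 were measured. At 1 week 13 of the 20 were lower (13.9% of all genes) and 1 higher (11.3%), with a median of -1.71. Cntnap1, the axonal adhesion protein of the paranode, was at -3.14, Slc12a5, the potassium-chloride exporter that keeps neuronal chloride low, at -3.08, and Dlg2, a scaffold that binds Kcna channels, at -2.91. The 1 higher gene was the potassium-chloride cotransporter Slc12a7, at 1.06 at 1 week and 1.74 at 3 weeks. At 3 weeks 4 of the 20 were lower (3.4% of all genes) and 1 higher (8.49%), with a median of -0.81. For scale, 5 of 7 measured sodium channel genes (Scn) and 11 of 18 calcium channel genes (Cacn) were lower at 1 week (13.9% of all genes), where the share of potassium channel genes was 30 of 54. Higher at 1 week were 2 of the 7, 0 of the 18 and 3 of the 54 (11.3% of all genes). The difference between these shares was not tested.

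**Figure D4:**
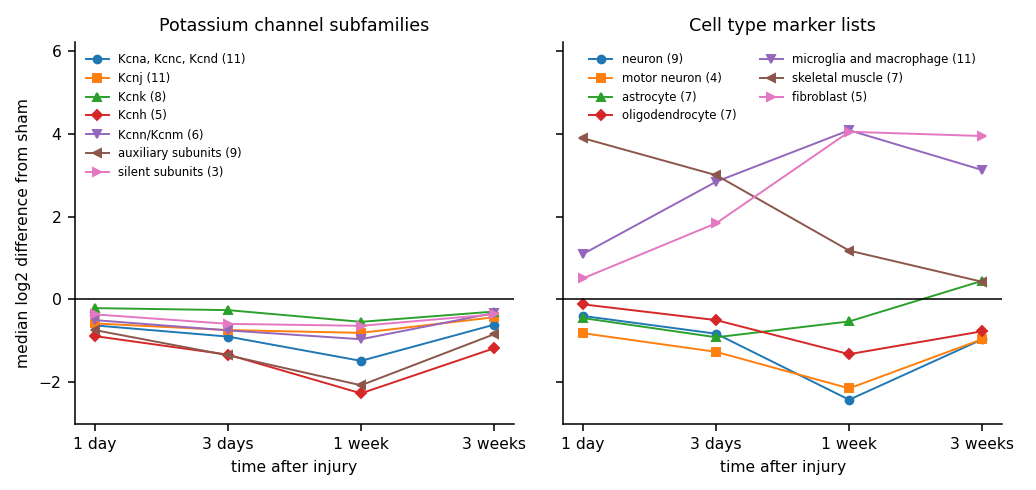
Median log2 difference from sham at the 4 times after injury, for subfamilies of potassium channel genes (left) and lists of cell type markers (right), with the number of measured genes in brackets. Each subfamily median is below 0 at every time, as are the neuron, motor neuron and oligodendrocyte medians, while microglia and macrophage, fibroblast and skeletal muscle medians are above 0.

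The labelled tissue was checked with marker lists, of which 9 of 10 neuron, 7 of 8 oligodendrocyte and 7 of 8 astrocyte markers were measured. Markers of several cell types lay below sham beside the lower channel genes. Neuron markers had medians of -0.40, -0.83, -2.42 and -0.96 at the 4 times, with 1, 4, 9 and 3 of 9 lower, and at 1 week Syt1 was at -3.18, Elavl4 at -3.16 and Rbfox3 at -2.81. Motor neuron markers had 4 of 4 measured lower at 1 week (median -2.14), with Slc18a3 and Slc5a7 both at -2.75. Oligodendrocyte markers had 5 of 7 lower at 1 week (median -1.32), with Ugt8a at -1.89 and Mog at -1.84, but 1 of 7 at 1 day and at 3 days. Astrocyte markers had 2, 3, 1 and 0 of 7 lower at the 4 times. Alas2, the measured 1 of 3 erythrocyte markers, was lower at every time, between -1.26 and -2.51. At 1 day 11 of 54 channel genes and 1 of 9 neuron markers were lower, against 4.09% of all genes. Differences below 0, of any size, were then found in 49 of 54 and 9 of 9, against 66.2%. The difference between these shares was not tested. Of the 3 juxtaparanode genes Kcna1, Kcna2 and Kcnab2, 3 were lower at 1 week (13.9% of all genes) with a median of -2.07. The part of these cell types in the channel differences was not tested.

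The exon-level probe sets come from the same pools, and whether they were read from the same hybridisations is not given, so they may summarise the same intensities again and are no replicate. Of the 54 measured genes, 46 had at least 4 probe sets above the exon-level filter (4.85). Among these, 10 genes were past 2-fold after 1 day, 20 after 3 days, 30 after 1 week and 13 after 3 weeks, and in each of them at least 75% of the probe sets moved the way the gene did. At 1 week the probe set median lay within 0.5 of the gene-level value in 43 of 46 genes, with Kcnj6 at one end (1.97 lower over probe sets) and Kcnc1 at the other (0.98 higher). The SD over probe sets at 1 week ran from 0.14 to 1.89 with a median of 0.75. For 8 of the 54 genes 2 or more arrays held the same gene-level value to 6 decimals (34.4% of all genes). Kcnh3 did so in sham, at 1 day, at 3 days and at 3 weeks, so a difference of 0.00 there is a tie of the summary. The others were Kcna3, Kcna5, Kcnc4, Kcnj12, Kcnh7, Kcnn4 and Kcns3, whose equal signals are ties too. Kcnn4, for instance, was 0.26 above sham at both 3 days and 3 weeks, where its probe sets gave 0.59 and 0.55.

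**Figure D5:**
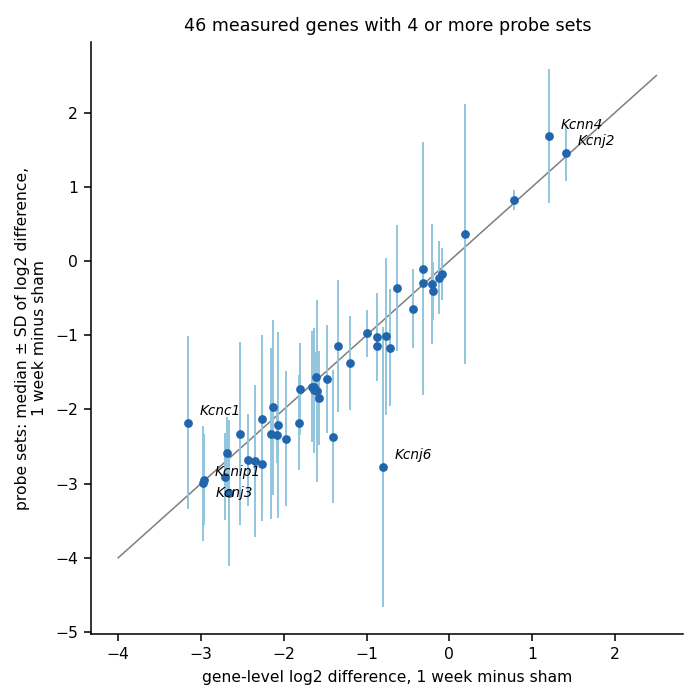
Log2 difference of 1 week minus sham for the 46 measured genes with 4 or more probe sets: gene-level value (horizontal axis) against the median ± SD over exon-level probe sets (vertical axis), with the line of equality. Points follow the line, with Kcnc1 above it and Kcnj6 below it.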

How the data were processed

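Affymetrix whole-transcript arrays were hybridised with RNA pooled from 3 mice per group. Each pool appears as a gene-level and an exon-level sample, which makes 10 samples in 5 groups. Both tables were deposited as log2 signals, 1 per transcript cluster or probe set; how the authors corrected, normalized and summarised the probes is not given in the sources used, and the base of the logarithm was inferred, since the highest value, 13.15, would exceed 65535, the top of the scanner's range, with natural logarithms. Per the submitters' processing notes, GCOS and the mm8 build were used. Gene-level array medians ran from 4.52 to 4.76, exon-level medians from 5.38 to 5.81.

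Values were used as deposited, with pandas 2.3.3 and numpy 2.4.6. Symbols came from the platform annotation, brought up to date through a RefSeq table (GRCm38.p6); clusters with several symbols (1019) or none were left out. Probe sets that reached 4.85 (40th percentile of the exon-level table) on any array gave the medians and SDs: 474 of 680 probe sets of the channel genes. The scripts were tested on simulated data. Named are the 3 genes per subfamily with the largest difference from sham, all genes 2-fold higher at any time or 2-fold different at 1 day, and 20 genes with known roles, 5 of which were not analysed here; other genes are named where a sentence needs them, chosen after their values were seen. Members, lists and motifs were chosen with earlier results of these data known. Precision is limited by the number of arrays. Alternatives changed the scaling, filter, cluster, summary level and fold.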

Additional observations from a re-analysis of the deposited data

Results flagged for a closer look

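The 6 genes below lay on opposite sides of sham at 2 times, with the times at least 2-fold apart; with 1 array per group these differences between times were not tested. Kcnj2 was at 2.44 at 3 weeks and -0.24 at 1 day, a difference of 2.68 on the log2 scale. Kcnj15 was at 1.45 at 1 week and -0.03 at 1 day, 1.48 apart, though centring each array turned the 1 day value to 0.05. Kcne4 was at 1.07 at 3 weeks and -0.34 at 1 day, 1.42 apart. Kcnk5 was at 1.23 at 3 weeks and -0.13 at 1 week, 1.35 apart. Kcns1, a silent subunit of sensory neurons, was at 0.59 at 3 weeks and -0.59 at 3 days, 1.18 apart, with probe sets at 0.92 ± 0.58 and -0.58 ± 0.37 (SD, n = 4). Kcne1l, an auxiliary subunit gene, was at 0.77 at 1 week and -0.38 at 1 day, 1.16 apart, with probe sets at 0.82 ± 0.14 and -0.42 (n = 4), and at 0.71 at 3 weeks.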

How the results depend on the processing

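No paired analysis was possible because each group is 1 array. Of 420 values of single genes under the alternatives, 404 moved by less than the SD over the gene's probe sets (0.2 in log2 where it had none) and 16 by more. None past 2-fold changed sign, while 9 small values did, all within 0.23 of 0 as deposited (Kcnj15, Kcnk5 and Kcnk13 at 1 or 3 days). The SD is a wide limit, with a median of 0.75 at 1 week, and 1 alternative was the median of the same probe sets. The 404 thus include Kcnc1 at 1 week, at -3.16 as deposited and -2.18 over probe sets. Medians were held to 0.2; of 112 counts over the channel genes, 90 stayed within 1.5 times. A 1.5-fold threshold gave 28 genes lower at 1 day, 37 at 3 days and 28 at 3 weeks, 5 higher at 3 weeks, 10 lower at 3 days than at 1 day, 20 lower at 1 week than at 3 days, and 35 higher and 3 lower at 3 weeks than at 1 week. Quantile normalization gave 5 genes lower at 1 day, 2 lower at 3 weeks than at 1 week, and 1 day medians of -0.88 for Kcnq and -0.67 for Kcnh. It moved the median of all genes by 0.14 at 1 day, 0.10 at 3 days and -0.11 at 3 weeks. Centring each array moved it by -0.16 at 3 weeks and gave 3 genes lower at 3 days than at 1 day and 2 lower at 3 weeks than at 1 week. A filter at the 60th percentile kept 40 genes and gave 1 higher at 3 weeks, 0 lower at 3 weeks than at 1 week, and a 1 week median of -1.63. With no filter the medians over 73 genes were -0.59 at 3 days, -0.76 at 1 week, -0.40 at 3 weeks, and 0.60 for 3 weeks minus 1 week, with the added genes all dim. Medians over exon-level probe sets, for 69 genes, gave 1 gene higher at 1 day and 1 at 3 days, 5 lower at 3 days than at 1 day, 5 higher at 1 week than at 3 days, 30 higher and 3 lower at 3 weeks than at 1 week, and a 1 week median of -1.14. Averaging clusters of a symbol gave 0 genes lower at 3 days than at 1 day. Counting a gene only if it had 4 or more probe sets and 75% of these moved its way, an alternative chosen after seeing the data, gave 0 lower at 3 weeks than at 1 week. The cause of these changes was not tested. With 1 pool per group no value carries an error between animals, and differences of genes near the filter level are limited by signal over background.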
